A study of Mus musculus with 12 samples.

Results

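The 4 anti-apoptotic genes of the BCL2 family considered here are Bcl2, Bcl2l1, which encodes BCL-xL, Bcl2l2, which encodes BCL-w, and Mcl1. All probe sets whose symbol in the platform's probe table is 1 of these 4 were taken, which gave 4 of 18193 named genes and 19 of 45101 probe sets: 5 for Bcl2, 4 for Bcl2l1, 4 for Bcl2l2 and 6 for Mcl1. None of the 19 carried a second symbol. Of these, 17 had a mean signal above the minimum for testing, and the other 2 were too dim.

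RNA came from CTLL-2, a mouse cytotoxic T cell line that, per the series' text, was derived from a C57BL/6 mouse and depends on interleukin 2 (IL-2). Before the experiment the cells were kept in 50 U/mL human recombinant IL-2, and in all 3 groups they were then starved of IL-2 for 14 h and given cycloheximide (CHX in the plots), which blocks protein synthesis, at 20 µg/mL. The 30 min group and the 4.5 h group (4 arrays each) received cycloheximide alone for those times, and the IL-2 group (4 arrays) received cycloheximide for 30 min and then 100 U/mL IL-2 for 4 h. A group without cycloheximide named in the series' text was not analysed here, so cycloheximide is common to every value below. A cell line grown in IL-2 is a model of an IL-2-dependent T cell rather than of a resting one, and in bulk RNA fewer cells carrying a message and less message per cell cannot be told apart.

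BCL2 and its relatives sit on the mitochondrial outer membrane and hold back BAX and BAK, the proteins that open that membrane during apoptosis. BH3-only proteins are released or made when a cell lacks survival signals, and they bind the anti-apoptotic members and neutralise them. In T cells IL-2 is a survival signal, and its withdrawal from IL-2-dependent lines leads to apoptosis. MCL1 is known for its very short protein lifetime, whereas BCL2 is long-lived.

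Promoter windows are shown because the members moved differently after IL-2, with Bcl2 and Bcl2l1 rising and Mcl1 not passing the 2-fold rule. RefSeq windows on build GRCm38.p6, each 250 bases before to 50 after a start, were available for all 4 genes, and the 250 bases before the start are given 5′ to 3′ on the gene's strand with GGGCGG or its reverse complement (the GC box) in capitals. Bcl2 had 1 window (chr1:106714291-106714540, minus strand). Bcl2l1 had 3, of which the farthest upstream is shown (chr2:152831729-152831978, minus strand), and Mcl1 had 1 (chr3:95658471-95658720, plus strand). All 3 Bcl2l1 windows and the Mcl1 window lie inside the annotated gene, and which start these cells use was not measured.
Bcl2: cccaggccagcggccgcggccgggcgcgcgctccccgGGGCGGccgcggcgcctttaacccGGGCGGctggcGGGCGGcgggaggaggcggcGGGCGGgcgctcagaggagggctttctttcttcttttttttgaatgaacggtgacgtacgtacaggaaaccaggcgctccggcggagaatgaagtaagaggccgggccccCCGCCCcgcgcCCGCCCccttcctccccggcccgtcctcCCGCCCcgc
Bcl2l1: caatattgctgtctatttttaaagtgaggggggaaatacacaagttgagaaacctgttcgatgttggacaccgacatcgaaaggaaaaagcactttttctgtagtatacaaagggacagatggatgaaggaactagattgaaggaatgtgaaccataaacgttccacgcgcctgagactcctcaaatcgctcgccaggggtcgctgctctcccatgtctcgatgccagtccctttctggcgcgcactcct
Mcl1: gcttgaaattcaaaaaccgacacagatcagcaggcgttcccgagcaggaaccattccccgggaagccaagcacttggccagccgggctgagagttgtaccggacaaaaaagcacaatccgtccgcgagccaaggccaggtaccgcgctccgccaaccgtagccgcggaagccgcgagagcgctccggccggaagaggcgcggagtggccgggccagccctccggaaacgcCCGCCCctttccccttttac
The Bcl2 window held 7 GC boxes, the Mcl1 and Bcl2l2 windows 1 each, and the 3 Bcl2l1 windows 0, against 35.7% of all 32851 RefSeq promoter windows with at least 1. No matches overlapped. Over the 300 bases, 76% of the letters of the Bcl2 window were G or C, against 65.7% for Mcl1, 65.3% for Bcl2l2 and 49.3% to 55.7% for Bcl2l1. Both strands were also searched for the STAT motif TTCNNNGAA, the E-box CACGTG, the cyclic AMP response element TGACGTCA and the FOXO motif TGTTTAC. None of the 6 windows held any of them. These motifs occur in 8.3%, 7.15%, 1.79% and 3.65% of all windows, so 6 windows are too few to make their absence a result. The genes lie at chr1:106538176-106714290 (Bcl2), chr2:152758732-152833803 (Bcl2l1), chr14:54883366-54890858 (Bcl2l2) and chr3:95656944-95663179 (Mcl1).

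The array labelled IL-2 plus cycloheximide replicate 3 stood apart and was left out, so the IL-2 group had 3 arrays. Its summed signal over 8 T cell markers was 302.7, against 126605 to 227245 on the other 11 arrays, and its summed signal over 6 muscle markers was 74393, against 2313 to 4861. On the 11 arrays, Cd3e, part of the antigen receptor complex of T cells, ranged from 3614 to 12027, whereas Cd2 (3.1 to 14.7) and Cd8a (87.3 to 334.8) were low. Muscle markers summed to 3706 to 4861 in the 4.5 h group, above the 2342 to 3164 of the 30 min group and the 2313 to 2776 of the IL-2 group, and Ckm made up most of it. Summed B cell, myeloid and fibroblast markers reached at most 132.0, 793.0 and 332.8 on the 11 arrays. The left-out array had 13.2 and 484.6 for the B cell and myeloid sums and 8861 for the fibroblast sum, nearly all of it from Col3a1, a collagen gene. The 4.5 h arrays had a scan day to themselves, and in the comparisons with them scan day and group cannot be told apart. The log2 difference between 3′ and 5′ Actb probe sets, a sign of RNA quality, was 0.56 ± 0.17 (SD, n = 4) in the 4.5 h group, 0.29 ± 0.04 (n = 4) in the 30 min group and 0.25 ± 0.03 (n = 3) in the IL-2 group. Summed T cell markers were also lower with IL-2 (126605 to 136546) than at 4.5 h (151125 to 190435) or 30 min (148217 to 227245). The part of these values in the results was not tested.

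Bcl2 and Bcl2l1 were higher in cells given IL-2 for 4 h than in cells given cycloheximide alone for the same 4.5 h. Their brightest probe sets differed by 3.09-fold and 2.47-fold, and 6 of the 17 member probe sets tested were called, that is, reached 2-fold with an adjusted p under 0.05 (3 of 5 for Bcl2 and 3 of 3 for Bcl2l1), all of them higher. Over all 27022 probe sets tested, 6.63% were called higher and 5.51% lower by this rule. No member probe set was called lower. Bcl2l2 was higher by less than 2-fold, and the 6 Mcl1 probe sets lay on both sides of 0. The median log2 difference of the 17 was 0.45, against -0.02 over all probe sets. With the left-out array included, 3 member probe sets were called, all of Bcl2l1.

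BCL2 is the founding member of the family. Its brightest probe set, 1457687_at, gave signals of 6557, 8378 and 7761 in the IL-2 group. In the 4.5 h group it gave 2266, 2873, 2299 and 2308, and in the 30 min group 1718, 1465, 2456 and 2924. Every IL-2 array stood above every array without IL-2, while the groups without IL-2 overlapped. The log2 difference between IL-2 and 4.5 h was 1.63 ± 0.23 (SE, adjusted p = 7.57e-04).

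Probe set 1422938_at of Bcl2 gave 2244, 2218 and 2259 with IL-2, a spread of 0.925% (coefficient of variation, n = 3). It gave 475.3, 476.6, 348.7 and 487.3 at 4.5 h, and 739.8, 666.1, 766.3 and 1018.5 at 30 min. The 3 groups did not overlap, with 4.5 h lowest and IL-2 highest. IL-2 exceeded 4.5 h by 2.30 ± 0.18 on the log2 scale, or 4.91-fold (adjusted p = 3.82e-05). Probe set 1437122_at gave 4613, 4038 and 3906 with IL-2, against 1043, 1503, 1085 and 1119 at 4.5 h, and the log2 difference was 1.82 ± 0.18 (adjusted p = 1.17e-04).

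The remaining Bcl2 probe sets were dim and behaved otherwise. Probe set 1440770_at gave 111.8, 141.7 and 195.1 with IL-2, inside the range of its 4.5 h signals of 96.9, 263.0, 165.9 and 172.5. Its log2 difference was -0.16 (95% interval -1.05 to 0.72). Probe set 1443837_x_at, whose suffix marks probes that can also match other sequences, gave 335.9, 362.7 and 351.5 with IL-2 and 184.4, 398.8, 210.1 and 221.0 at 4.5 h. These groups overlapped through 1 array, and the log2 difference of 0.50 ± 0.25 did not pass (adjusted p = 0.167). The probe sets of Bcl2 therefore did not all report the same change, as the plot of signals by array shows.

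**Figure D1:**
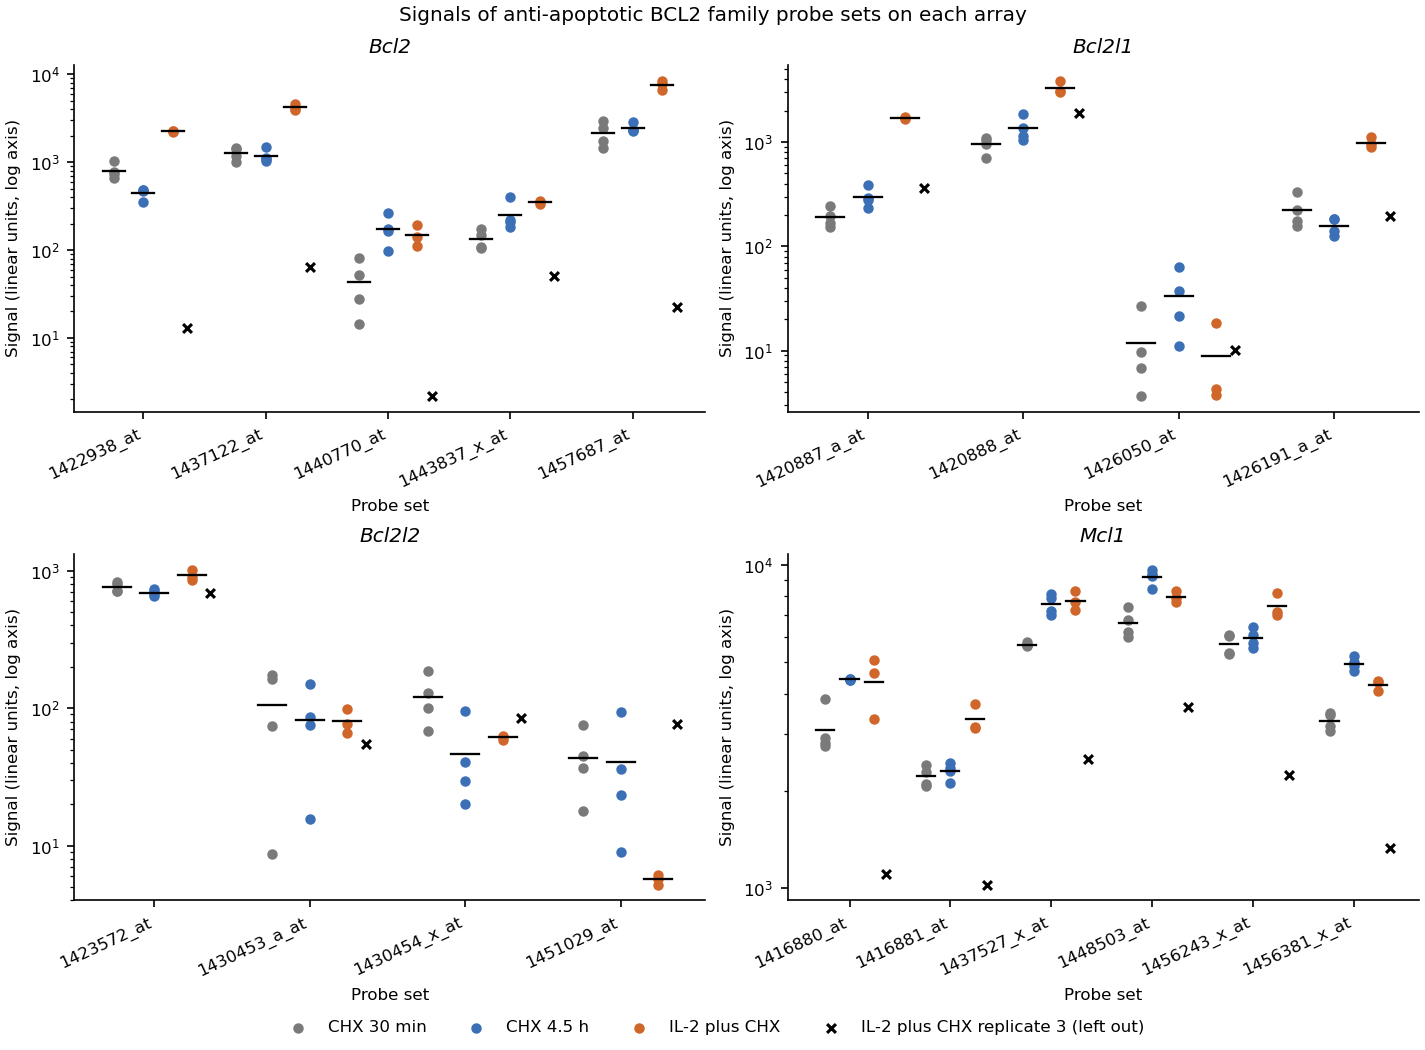
Signal (linear units on a log axis) of each of the 19 member probe sets on each array, in 1 panel per gene. Points are arrays, black bars are group means over the arrays used, and crosses mark the left-out array; the IL-2 points used stand above all others for 3 Bcl2 and 3 Bcl2l1 probe sets and, by smaller margins, for Bcl2l2 1423572_at and Mcl1 1416881_at and 1456243_x_at.

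BCL-xL, the product of Bcl2l1, guards the same membrane and is a known survival protein of lymphocytes. Its brightest probe set, 1420888_at, gave 3852, 2996 and 3096 with IL-2, 1054, 1861, 1377 and 1136 at 4.5 h, and 1042, 952.4, 1103 and 699.1 at 30 min. The IL-2 arrays stood apart from all others, and the remaining groups overlapped. IL-2 exceeded 4.5 h by 1.30 ± 0.23 on the log2 scale (adjusted p = 0.00215).

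Probe set 1420887_a_at of Bcl2l1, whose suffix marks probes common to transcripts of 1 gene, gave 1737, 1715 and 1682 with IL-2. It gave 277.6, 389.1, 293.0 and 231.0 at 4.5 h and 195.6, 246.2, 153.5 and 168.3 at 30 min. Every array without IL-2 was far below the IL-2 arrays, and the log2 difference from 4.5 h was 2.48 ± 0.20, or 5.60-fold (adjusted p = 4.29e-05). Probe set 1426191_a_at gave 1117, 887.8 and 962.8 with IL-2 against 181.3, 184.3, 124.9 and 141.4 at 4.5 h, a log2 difference of 2.54 ± 0.24 (adjusted p = 9.62e-05). The 95% intervals of these probe sets, 2.05 to 2.92 and 2.01 to 3.07, lay above that of 1420888_at, which was 0.80 to 1.81, so the probe sets shared a direction and differed in size. The fourth probe set, 1426050_at, ranged from 3.7 to 63.1 on the 11 arrays and was not tested.

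BCL-w, the product of Bcl2l2, is the member best known from the testis and nervous system. Its only bright probe set, 1423572_at, gave 1017, 895.9 and 862.2 with IL-2, 680.6, 652.3, 732.4 and 713.1 at 4.5 h, and 716.5, 824.7, 716.7 and 796.3 at 30 min. The IL-2 arrays were the highest, by a small margin. The log2 difference between IL-2 and 4.5 h was 0.40 ± 0.13 (adjusted p = 0.0373, 95% interval 0.12 to 0.68), which passed the adjusted p and was under 2-fold. Adjusted p-values ran from 0.00254 to 0.456 over the alternative settings. The dim probe sets 1430453_a_at and 1430454_x_at differed by 0.19 and 0.45 on the log2 scale with overlapping groups, and 1451029_at (5.2 to 93.4 on the 11 arrays) was not tested.

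MCL1 is needed for the survival of lymphocytes and is replaced continuously in living cells. Its brightest probe set, 1448503_at, gave 8282, 7926 and 7659 with IL-2, 8418, 9362, 9239 and 9661 at 4.5 h, and 6768, 6198, 5980 and 7425 at 30 min. All IL-2 arrays lay below the 4.5 h arrays and above the 30 min arrays. The log2 difference between IL-2 and 4.5 h was -0.20 (95% interval -0.49 to 0.08, adjusted p = 0.274), an interval that does not include a 2-fold difference in either direction.

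The 6 Mcl1 probe sets split into patterns. Probe set 1416881_at gave 3728, 3148 and 3138 with IL-2 and 2354, 2113, 2443 and 2307 at 4.5 h, and the difference of 0.53 ± 0.13 on the log2 scale passed the adjusted p (0.0128) without reaching 2-fold. Probe set 1456243_x_at gave 7159, 8165 and 7024 with IL-2 and 6071, 6413, 5544 and 5737 at 4.5 h, with a log2 difference of 0.32 ± 0.13 (adjusted p = 0.0869). In both, each IL-2 array exceeded each 4.5 h array. Probe set 1456381_x_at ran the other way, with 4363, 4082 and 4358 with IL-2 against 5015, 4695, 4861 and 5219 at 4.5 h (log2 difference -0.21, adjusted p = 0.217). Probe sets 1416880_at (-0.05) and 1437527_x_at (0.03) had overlapping groups. Without the fold threshold, 8 of the 17 member probe sets passed as higher and 0 as lower in this comparison, where 13.7% of all probe sets passed as higher and 13.9% as lower.

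Of the 6 Mcl1 differences, 1448503_at, 1456381_x_at and 1416880_at changed sign with the scale to which arrays were set, and the other 3 were above 0 with quantile normalization and with centring on array medians or ribosomal protein genes. Centring each array on ribosomal protein genes shifted the median over all tested probe sets by 0.55 log2 between IL-2 and 4.5 h, and turned the log2 difference of 1448503_at to 0.35, which was -0.19 relative to the median of all probe sets. Relative to that median, 1456381_x_at was at -0.20 and 1416880_at at -0.03 on this scale. On that scale 8 member probe sets were called higher, the 6 above with Bcl2 1443837_x_at (1.06) and Mcl1 1416881_at (1.08). The calls over all probe sets split into 5928 higher and 434 lower on that scale, against 1791 and 1490 as deposited.

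**Figure D2:**
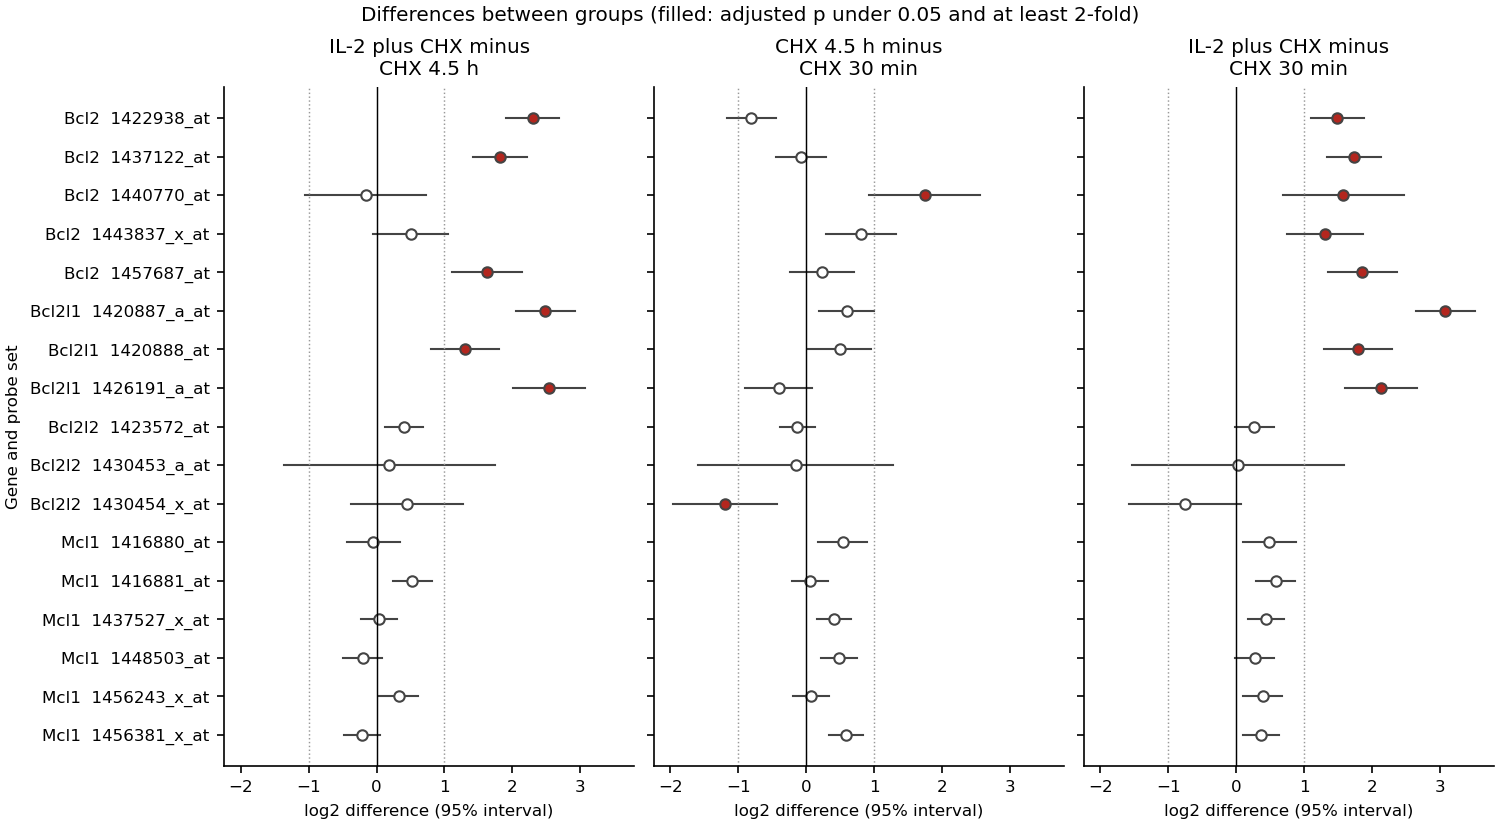
Difference in log2(signal + 16) between groups for the 17 tested probe sets, with 95% intervals, in the 3 comparisons; filled points reached 2-fold with an adjusted p under 0.05, and dotted lines mark 2-fold. Filled points on the left are 3 of Bcl2 and 3 of Bcl2l1, and no Mcl1 point is filled in any panel.

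Within cycloheximide alone, from 30 min to 4.5 h, the bright probe sets of the members moved by less than 2-fold. The rule called 1 member probe set higher (Bcl2 1440770_at) and 1 lower (Bcl2l2 1430454_x_at), against 6.48% and 6.76% of all probe sets. By adjusted p alone, 7 were higher and 2 lower, where 16.4% and 15.1% of all probe sets passed. The median log2 difference was 0.23 over the members and 0.01 over all probe sets. With the left-out array included in the fit, 0 member probe sets were called.

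Bcl2 probe sets moved in opposite directions over this time. Probe set 1422938_at, whose groups did not overlap, fell by 0.81 ± 0.16 on the log2 scale (adjusted p = 0.00389). Probe set 1440770_at had signals of 27.5, 14.4, 51.8 and 80.3 at 30 min, all under its 4.5 h signals, and rose by 1.74 ± 0.37 (adjusted p = 0.00521). Probe set 1443837_x_at rose by 0.81 ± 0.23 (adjusted p = 0.0230), from 172.6, 106.0, 148.3 and 109.7. The brightest, 1457687_at, had a log2 difference of 0.23 (95% interval -0.24 to 0.71), which became -0.07 when arrays were centred on ribosomal protein genes and was 0.22 relative to the median of all probe sets on that scale. Probe set 1437122_at had a log2 difference of -0.08, with 1180, 1455, 995.9 and 1395 at 30 min.

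For Bcl2l1 the time in cycloheximide alone gave a rise of 0.60 ± 0.18 in 1420887_a_at (adjusted p = 0.0294), where the groups overlapped, and values of 0.49 ± 0.21 in 1420888_at (adjusted p = 0.100) and -0.41 ± 0.22 in 1426191_a_at (adjusted p = 0.194). For Bcl2l2 the bright 1423572_at differed by -0.13 (95% interval -0.39 to 0.13). The called probe set 1430454_x_at was dim, with 99.7, 68.4, 187.8 and 129.8 at 30 min and 95.1, 29.5, 40.6 and 20.2 at 4.5 h, which overlapped. Its fall of 1.20 ± 0.35 (adjusted p = 0.0228) was no longer called without 1 of 5 arrays: 30 min replicate 3 or 4, or 4.5 h replicate 2, 3 or 4.

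Of the 6 Mcl1 probe sets, 4 rose by adjusted p alone, and in each of these every 4.5 h array exceeded every 30 min array. They were 1456381_x_at (0.58 ± 0.11, adjusted p = 0.00277), 1416880_at (0.54 ± 0.16, adjusted p = 0.0295), 1448503_at (0.48 ± 0.12, adjusted p = 0.0117) and 1437527_x_at (0.41 ± 0.11, adjusted p = 0.0182). In 1456381_x_at the 30 min signals were 3446, 3186, 3067 and 3493. In 1437527_x_at they were 5758, 5616, 5642 and 5675, against 7884, 8109, 7191 and 7020 at 4.5 h. The Mcl1 probe sets whose IL-2 arrays all exceeded the 4.5 h arrays, 1416881_at and 1456243_x_at, had log2 differences of 0.06 each over time with overlapping groups. On the scale of ribosomal protein genes, where the median over all tested probe sets shifted by -0.30, all 6 Mcl1 values failed the adjusted p (the brightest was 0.18, adjusted p = 0.503, against 0.00197 to 0.503 over all settings) and lay 0.04 to 0.57 above that median, Bcl2 1422938_at was also called lower (-1.11), and the calls over all probe sets split into 774 higher and 3637 lower, against 1751 and 1827.

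**Figure D3:**
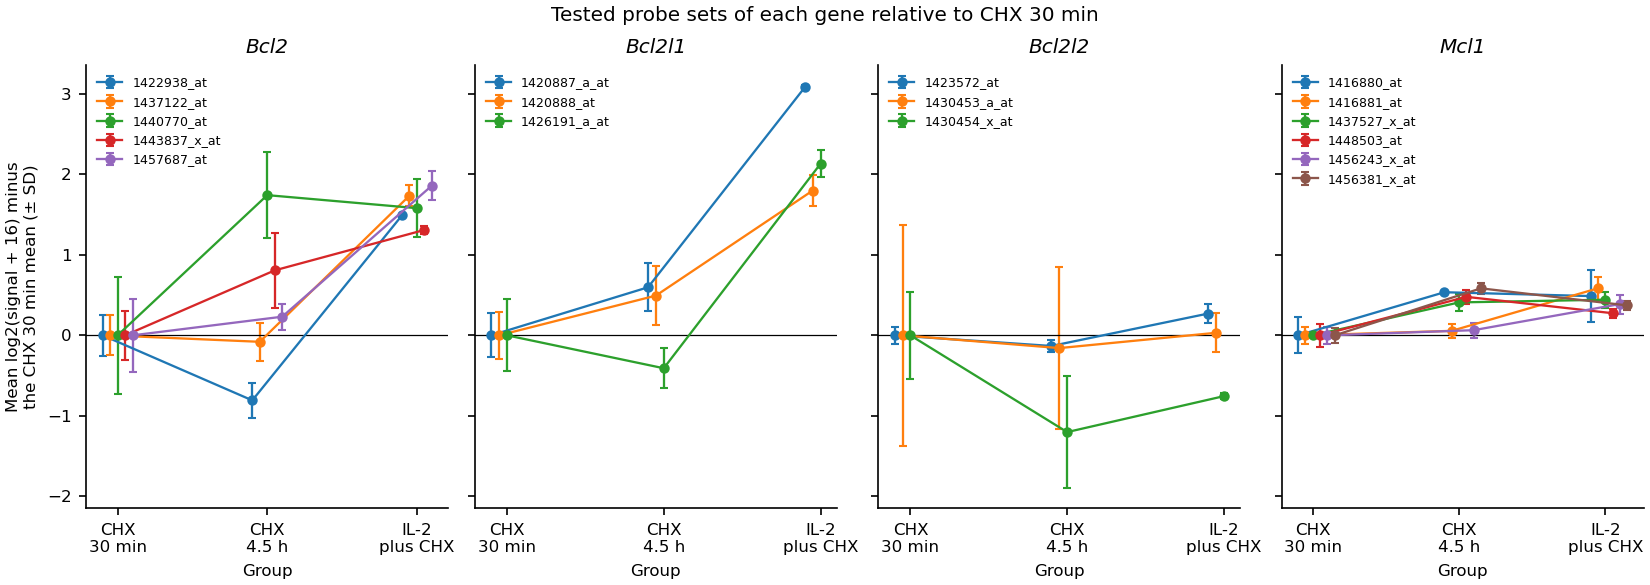
Mean log2(signal + 16) of each tested probe set in each group minus its mean at 30 min, with the SD over arrays (n = 4, 4 and 3), in 1 panel per gene. All Bcl2 and Bcl2l1 lines end between 1.31 and 3.08 in the IL-2 group, while 4 Mcl1 lines reach 0.41 to 0.58 at 4.5 h and the other Mcl1 lines stay at 0.06. The Bcl2 lines of 1440770_at and 1443837_x_at already stand at 1.74 and 0.81 at 4.5 h, without IL-2.

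The comparison with the 30 min group shares a scan day, except for 30 min replicate 3, which was scanned on another day. In it, 8 member probe sets were called higher with IL-2 and 0 lower, where 6.32% of all probe sets were called higher and 4.26% lower. They were all 5 of Bcl2, with log2 differences of 1.31 to 1.86, and all 3 tested of Bcl2l1, with 1.80 to 3.08. In each of the 8, all IL-2 arrays exceeded all 30 min arrays. These groups also differ in time in cycloheximide, 4.5 h against 30 min, so here IL-2 and time cannot be told apart. Over that time in cycloheximide alone, Bcl2 1440770_at rose by 1.74 log2 and 1443837_x_at by 0.81. Neither of these was called with IL-2 at matched time. Among the 8, the difference from 30 min was greatest for Bcl2l1 1420887_a_at, at 3.08 ± 0.20 or 8.46-fold (adjusted p = 9.23e-06). The brightest probe sets gave 1.86 ± 0.23 for Bcl2 (adjusted p = 3.34e-04) and 1.80 ± 0.23 for Bcl2l1 (adjusted p = 3.50e-04). Within the first scan day alone, with 3 arrays in each group, these were 1.94 ± 0.29 (adjusted p = 0.0104) and 1.88 ± 0.22 (adjusted p = 0.00589). Over all settings the adjusted p of these probe sets ran from 1.93e-06 to 0.990 for Bcl2, highest with the left-out array, and from 2.90e-06 to 0.00872 for Bcl2l1. With the left-out array included, 2 member probe sets were called, both of Bcl2l1.

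Bcl2l2 1423572_at had a log2 difference of 0.27 (95% interval -0.01 to 0.55, adjusted p = 0.156) from 30 min. Among the Mcl1 probe sets, 1416881_at (0.58 ± 0.13, adjusted p = 0.00861), 1437527_x_at (0.44 ± 0.12, adjusted p = 0.0228) and 1456381_x_at (0.37 ± 0.12, adjusted p = 0.0454) were higher by less than 2-fold, and 1448503_at stood at 0.27 ± 0.13 (adjusted p = 0.156). Over time in cycloheximide alone, 1437527_x_at and 1456381_x_at rose by 0.41 and 0.58. With IL-2 at matched time they differed by 0.03 and -0.21. For 1416881_at these values were 0.06 over time and 0.53 with IL-2 at matched time. By adjusted p alone, 11 member probe sets were higher and 0 lower, against 12.5% and 10.9% of all probe sets. The median log2 difference was 0.58 over the members and -0.04 over all probe sets. Centring on array medians split all calls into 2157 higher and 798 lower and on ribosomal protein genes into 2742 and 549, against 1708 and 1151, with the same 8 member calls in each.

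The order of the changes after IL-2 was set out between members within arrays, from the brightest probe sets. At matched time Bcl2 changed by 1.83 log2 more than Mcl1 and by 1.23 more than Bcl2l2, and Bcl2l1 by 1.51 and 0.90 more, with no overlap between the groups in any of these differences. Each gave the smallest p that 3 against 4 arrays allow in a two-sided exact permutation test, 0.0571 (0.0935 after adjustment over 18 such tests, which were chosen after the values had been seen), so this test could not pass 0.05 with groups of these sizes. Bcl2 and Bcl2l1 differed from each other by 0.32 (exact permutation p = 0.229), with overlap. The order of Bcl2 and Bcl2l1 depended on the probe set. By the median of each gene's tested probe sets at matched time, Bcl2l1 was at 2.48 log2 and Bcl2 at 1.63. Bcl2l2 was at 0.40 and Mcl1 at -0.01 by this measure. From 30 min to 4.5 h, Bcl2l2 changed by 0.61 less than Mcl1 and by 0.63 less than Bcl2l1 (exact permutation p = 0.0286 each, adjusted 0.0935), again without overlap.

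Over the 11 arrays, which share the 3 groups and scan days, log2 values of the brightest probe sets of Bcl2 and Bcl2l1 had a Pearson correlation of 0.87. Correlations with Bcl2l2 were 0.69 for Bcl2 and 0.63 for Bcl2l1, and those with Mcl1 were 0.22 for Bcl2, 0.29 for Bcl2l1 and -0.16 for Bcl2l2. Between probe sets of 1 gene the correlations ran from 0.85 to 0.95 for Bcl2l1, 0.07 to 0.91 for Bcl2, 0.20 to 0.95 for Mcl1 and 0.05 to 0.35 for Bcl2l2.

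Of 21841 named probe sets compared over the same 11 arrays, those most like Bcl2 1457687_at were of Pvt1, a long noncoding RNA gene beside Myc (r = 0.985), Zbtb41, a zinc finger gene (0.984), and Tnfrsf18, the costimulatory receptor GITR (0.983). Pvt1 had mean signals of 1453 at 30 min, 1937 at 4.5 h and 4739 with IL-2. Those most like Bcl2l1 1420888_at were of Icosl, the ligand of the costimulatory receptor ICOS (0.984), Dnmbp, a scaffold protein (0.979), and Socs3, a feedback inhibitor of cytokine signalling (0.976). Socs3 had mean signals of 1518, 2766 and 9044 in the same order of groups. Closest to Bcl2l2 1423572_at were Sdad1 (0.951), Tbc1d1 (0.950) and Smc6 (0.933). Closest to Mcl1 1448503_at were Zfp866 (0.978), Jade1 (0.974) and Cnbp (0.969), all of which had their highest mean signal at 4.5 h.

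Other genes of the pathway were counted by the brightest tested probe set of each gene. With IL-2 at matched time, 5.04% of 12754 genes counted in this way were called higher and 5.94% lower, against 7.22% and 4.75% over time in cycloheximide and 6.94% and 4.46% with IL-2 against 30 min. Among the BH3-only genes, whose products neutralise the members, 2 of 7 tested were lower with IL-2 at matched time and 0 higher. They were Bmf, which responds to loss of attachment or cytokine (-1.82 ± 0.16, adjusted p = 6.54e-05), and Bbc3, which encodes PUMA (-1.86 ± 0.33, adjusted p = 0.00227). Bmf fell from a mean signal of 675.1 to 180.8 and Bbc3 from 1557 to 430.8. Pmaip1, which encodes NOXA, the partner of MCL1, passed the adjusted p at 0.92 ± 0.23 (adjusted p = 0.0127) without reaching 2-fold. Bcl2l11, which encodes BIM, had a log2 difference of -0.27 ± 0.33. The median of the 7 was -0.27, against -0.07 over all genes.

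Against 30 min, Bmf (-2.32 ± 0.16) and Bbc3 (-1.16 ± 0.33) were again lower and Pmaip1 was called higher (1.49 ± 0.23, adjusted p = 0.00105). Over time in cycloheximide 0 of the 7 BH3-only genes were called. Of the effectors that open the membrane, Bak1 and Bok were tested and neither was called with IL-2 at matched time. Bok, which was dim (mean signals of 88.2 at 30 min, 27.7 at 4.5 h and 19.7 with IL-2), was called lower over time (-1.26 ± 0.30, adjusted p = 0.00877) and with IL-2 against 30 min. Bax was not analysed here. Of the other anti-apoptotic genes listed, Bcl2l10 was too dim to be tested, and the Bcl2a1 genes, whose probe sets carry several symbols each, were not analysed here.

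The caspase activation genes gave 2 of 9 higher with IL-2 at matched time and 1 lower. Casp8, the initiator caspase of death receptors, rose by 2.28 ± 0.19 (adjusted p = 4.75e-05), Diablo, which encodes an antagonist of caspase inhibitors, rose by 1.66 ± 0.14 (adjusted p = 4.87e-05), and Apaf1, the scaffold that activates caspase 9, fell by 1.22 ± 0.15 (adjusted p = 3.91e-04). Of 7 caspase inhibitors, Birc5, which encodes survivin and is high in dividing cells, was the 1 called lower (-1.75 ± 0.27, adjusted p = 0.00108), and over time Xiap was the 1 called lower (-1.05 ± 0.15, adjusted p = 5.19e-04). Over time, 0 of the 9 caspase activation genes were called, and against 30 min the same Casp8, Diablo, Apaf1 and Birc5 calls were made in the same directions. The medians at matched time were -0.35 for caspase activation and 0.05 for the inhibitors.

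**Figure D4:**
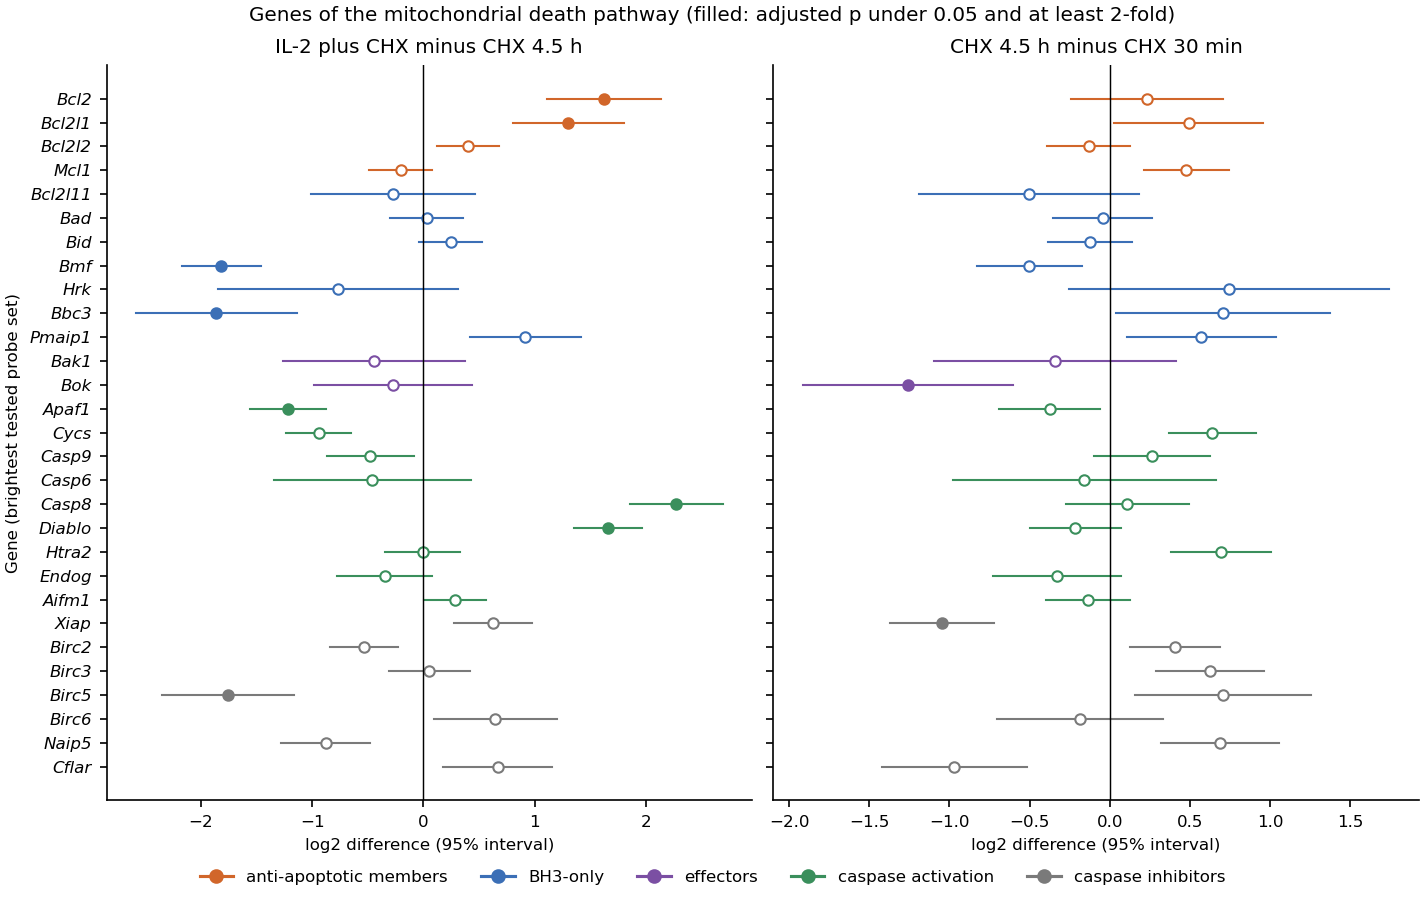
Difference in log2(signal + 16) with its 95% interval for the brightest tested probe set of each member and of the BH3-only, effector, caspase activation and caspase inhibitor genes, with IL-2 at matched time (left) and over time in cycloheximide (right). Filled points passed the adjusted p and the 2-fold rule; with IL-2 these are Bcl2, Bcl2l1, Casp8 and Diablo above 0 and Bmf, Bbc3, Apaf1 and Birc5 below 0.

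Of 8 genes whose products act on the turnover of MCL1 protein, among them Huwe1, a ubiquitin ligase (-0.25 ± 0.12 with IL-2 at matched time), and Gsk3b, a kinase (0.94 ± 0.36, adjusted p = 0.0752), 0 were called in each of the 3 comparisons. From the IL-2 receptor to the survival kinases, 3 of 14 genes were higher with IL-2 at matched time and 0 lower. They were Il2ra, the high-affinity receptor chain (2.12 ± 0.19, adjusted p = 7.68e-05), Pik3r1, a regulatory subunit of PI3 kinase (1.26 ± 0.22, adjusted p = 0.00230), and Pim2, a survival kinase (1.43 ± 0.30, adjusted p = 0.00563). Over time in cycloheximide, Il2ra (-1.78 ± 0.18), Pik3r1 (-1.49 ± 0.20) and Il2rb (-1.11 ± 0.13) were called lower and Pim2 higher (1.36 ± 0.28). Against 30 min, Il2ra did not pass (0.34 ± 0.19, adjusted p = 0.232), unlike Bcl2 and Bcl2l1, while Pim2 (2.79 ± 0.30) and Pim1 (1.15 ± 0.23) were called higher and Akt1 lower (-1.09 ± 0.15). The difference between Il2ra and the members was not tested.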

How the data were processed

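Signals of 12 Affymetrix GeneChip mouse genome arrays were used. The authors' deposited table holds 1 linear intensity for each probe set on each array; the submitters' processing notes name GCOS 1.3. Background correction and probe summary: not given in the sources used here. All deposited arrays shared a trimmed mean of 500, so they had been scaled. Scan days were read per the file headers.

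Signals were taken as log2(signal + 16) without further normalization, so fold changes of dim probe sets are understated. After 64 controls, 27022 of 45037 probe sets at or above the 40th percentile of mean log2 signal (signal 33.6) were tested. Symbols are those of the platform's probe table (34945 probe sets with 1 symbol, 932 with several, 9160 with none). A model of 3 groups and 11 arrays was fitted with limma 3.58.1 (lmFit, eBayes; R 4.3.3), with Benjamini-Hochberg adjustment over all tested probe sets; the code was tested on simulated data. Calls needed an adjusted p under 0.05 and 2-fold. The brightest tested probe set stands for a gene. In each list up to 4 called genes, by p with IL-2 at matched time, and at most 2 others, by signal, are named; further called genes of counts of 5 or fewer are named too, chosen after their values were seen. Members and lists were chosen with earlier results of these data known, as was leaving out 1 array. Nothing in the labels says that replicates came from separate cultures; p-values thus measure only the spread between arrays, possibly technical, and the number of arrays limits precision. Arrays were fitted without pairing by replicate number. Alternatives were other normalizations, pseudocounts, filters, eBayes settings, blocks, all 12 arrays and leaving out each array. Promoter sequences are from RefSeq (GRCm38.p6). Permutation tests used scipy under python 3.11.15.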

Additional observations from a re-analysis of the deposited data

Results flagged for a closer look

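Among 38 sets of 4 arrays (19 probe sets in the 30 min and 4.5 h groups), 5 held 1 array far from the others. Chance gives about 1 in 20 for independent sets, but these sets share arrays and genes, so the count cannot be read against that rate. Replicate 2 of the 30 min and 4.5 h groups also had high median signals over the whole array, 78.1 and 74.5. The other arrays without IL-2 had medians of 57.6 to 67.0. In the 4.5 h group, replicate 2 was high in 3 Bcl2 probe sets: 1457687_at at 2873.2 (others 2265.5 to 2308.2), 1437122_at at 1503.2 (others 1042.6 to 1119.2) and 1443837_x_at at 398.8 (others 184.4 to 221.0). In Bcl2 1422938_at, replicate 3 was low at 348.7 (others 475.3 to 487.3). In the 30 min group, replicate 2 of Mcl1 1416880_at was high at 3841.2 (others 2751.2 to 2912.4). On the left-out IL-2 array, Bcl2l1 1420888_at gave 1890.5, above the 1860.9 of the highest array without IL-2.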

How the results depend on the processing

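With IL-2 at matched time, 6 member probe sets were called and the count stayed within 1.5 times of that in all alternatives except the fit of all 12 arrays, which gave 3. Leaving out 1 array at a time gave 6 each time, and log2 differences of 1.55 to 1.73 for Bcl2 and 1.19 to 1.47 for Bcl2l1. Calls over all probe sets (3281) became 6362 with centring on ribosomal protein genes, 7457 without the fold threshold and 1196 with 12 arrays. Over time, the 2 member calls became 1 with a pseudocount of 64 or a 60th percentile filter, 9 without the fold threshold, 0 with 12 arrays, and 1 to 2 when 1 array was left out; the 3578 calls over all probe sets became 2256, with that pseudocount, 8500 without the fold threshold and 1885 with 12 arrays. Against 30 min, the 8 member calls became 2 and the 2859 calls over all probe sets 931 with 12 arrays, and 6331 without the fold threshold. With 12 arrays the Bcl2 difference turned to -0.28 (adjusted p = 0.929, against 8.43e-06 to 0.929 over all settings) at matched time and -0.044 (adjusted p = 0.990) against 30 min. That fit adds only the left-out array, on which Bcl2 1457687_at gave 22.5, against 6557 to 8378 on the other IL-2 arrays. Why that array differed was not tested. A replicate block left 6, 2 and 8 member calls, with 1.66 for Bcl2 and 1.35 for Bcl2l1 at matched time. Same-numbered arrays were at most weakly alike (correlations of -0.02 to 0.22), although against 30 min each of 3 IL-2 arrays correlated best with its own number. Dim probe sets, and 3 arrays with IL-2, limit what could be detected.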

Other observations

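The left-out array, which had high muscle and low T cell marker sums, gave member signals of its own kind. Bcl2 was at 22.5, 64.1 and 13.1 in its bright probe sets 1457687_at, 1437122_at and 1422938_at. Bcl2l2 1423572_at gave 691.7 there, inside the 652.3 to 824.7 of the arrays without IL-2, and Mcl1 1448503_at gave 3631, below the lowest of the other arrays (5980). Of the 6 muscle markers, Myod1 and Myog, regulators of muscle differentiation, gave 19045 and 13203 on it, where the remaining 11 arrays reached 84.6 and 58.1, and Acta1, skeletal muscle actin, gave 40277 against at most 261.6. Tnnt2 was at 86.4 against at most 58.8, whereas Des (92.4) lay inside the 3.1 to 102.4 of the other arrays and Ckm (1690) below their lowest (2097). Of the 3 fibroblast markers, Col3a1 gave 8760 against at most 82.1, Col1a1 was at 4.7, below the 8.0 to 127.7 of the other arrays, and Col1a2 at 96.0, inside their 50.8 to 181.6.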
